A study of Mus musculus with 2 samples.

Results

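The 10 genes described here, *Reln*, *Lrat*, *Des*, *Acta2*, *Pdgfra*, *Pdgfrb*, *Rgs5*, *Ecm1*, *Colec11* and *Adamtsl2*, mark hepatic stellate cells (HSCs) or their activation. They were chosen by name, and all 10 were among the 19059 genes measured in both libraries. HSCs are pericytes that lie between hepatocytes and the sinusoidal endothelium and store vitamin A as retinyl esters. In injured liver they can lose these stores, turn into contractile, myofibroblast-like cells that express *Acta2*, and deposit collagen. Both states hold a set of lineage genes, so identity genes and activation genes need to be read side by side.

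Single-cell expression was measured in 1 liver library of AEG-1 ΔMAC mice and 1 of AEG-1 fl/fl mice, to ask how the loss of AEG-1 (gene *Mtdh*) in myeloid cells bears on the steatohepatitic liver. AEG-1 fl/fl mice carry floxed AEG-1 alleles, and in AEG-1 ΔMAC mice these alleles are deleted by Cre driven from the myeloid LysM (*Lyz2*) locus, on a C57BL/6/J background. Both genotypes received HF/HSD, a high-fat and high-sugar diet, for 20 weeks from 7 weeks of age and were 27 weeks old at collection. Fixed, dissociated cells were profiled with gene-specific probe pairs, and whether a library pools several livers is not stated. HSCs are not a target of this Cre by its design, so differences in them are between livers whose myeloid cells differ by label.

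The AEG-1 ΔMAC-labelled library held 2581 cells with 79589511 counts, and the AEG-1 fl/fl-labelled library held 3535 cells with 90440089 counts. After the limits on genes and mitochondrial counts, 2571 and 3508 cells remained, with medians of 12746 and 7682 counts. In all, 10 barcodes occurred in both libraries, and 0 and 2 of them passed the stellate gate described below. With 1 library per label, no difference between labels has a replicate check. Intervals given here are 95% intervals that cover counting error only.

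The targeted gene did not follow the labels. In macrophage-gated cells *Mtdh* was at 69.0 CPM (counts per 1,000,000 counts, 65.8 to 72.4) in the AEG-1 ΔMAC-labelled library and at 49.5 CPM (46.3 to 52.9) in the AEG-1 fl/fl-labelled library. It was therefore higher where myeloid deletion was labelled. Where the *Mtdh* probes lie relative to the floxed exons is not given in the sources used here, and a probe outside the deleted part would check nothing. These macrophage-gated cells also held hepatocyte genes at 92.5% and 78.1% of the level in hepatocyte-gated cells, where *Mtdh* was at 61.4 and 58.5 CPM. Swapped labels, probe position and foreign RNA cannot be told apart by *Mtdh*. The study reports histological fibrosis on this diet for the AEG-1 fl/fl genotype alone. In stellate-gated cells *Col1a1* was at 902 and 2984 CPM, higher in the AEG-1 fl/fl-labelled library. These pooled levels also carry how strongly the cells passed the gate and their hepatocyte RNA, both described below. Whether the labels were swapped was not tested. For this reason the groups are called the AEG-1 ΔMAC-labelled and the AEG-1 fl/fl-labelled library throughout, and each direction below is a direction between labels.

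Cells were gated by marker counts. A cell passed the stellate gate when *Reln*, *Pdgfrb*, *Lrat* and *Dcn* (decorin, a small matrix proteoglycan) together reached 5 per 10,000 of its counts. By this rule 388 of 2571 cells (15.1%, 13.7% to 16.5%) passed in the AEG-1 ΔMAC-labelled library and 617 of 3508 cells (17.6%, 16.3% to 18.9%) in the AEG-1 fl/fl-labelled library. The intervals of these shares overlap, which alone does not place the difference within counting error. A gate on *Dcn*, *Colec11* and *Ecm1* instead gave 23.1% and 22.8%, so the order of the labels turned with the genes used. At 50 per 10,000 or more, a level reached by 64 and 182 cells, the shares were 2.49% and 5.19%.

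The stellate gate was wide and held RNA of other cells. Its cells had medians of 5746 and 4838 counts, and 58 and 120 of them passed on fewer than 3 counts of the gate genes. Of the gated cells, 236 and 327 also passed the macrophage gate and 50 and 67 the endothelial gate, while 139 and 252 passed no other gate. The macrophage gate was itself permissive and took 46.6% and 46.3% of all cells. Doublets were kept. Cells just inside the threshold, at 5 to 6 per 10,000, numbered 35 and 56, and cells just outside, at 4 to 5, numbered 43 and 53. *Ecm1*, which the gate did not use, was at 353 and 341 CPM just inside and at 403 and 160 CPM just outside.

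Hepatocyte RNA differed between the labels in the same gate, and free RNA was not told apart from doublets. A list of 12 hepatocyte genes, of which *Alb* (albumin) was the most abundant and none was at 0, summed to 85857 CPM in stellate-gated cells of the AEG-1 ΔMAC-labelled library and to 68625 CPM in those of the AEG-1 fl/fl-labelled library. Relative to hepatocyte-gated cells of the same library, the hepatocyte genes stood at 75.1% and 64.4% of their level. Since CPM are shares of a total, stellate genes have less room in the first library. The part of this RNA in each difference was not tested, and values with the hepatocyte profile subtracted are therefore given for the members and for most lists.

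The positions given here, for 9 of the 10 members, are from the GENCODE annotation of GRCm38, the mm10 assembly of the files. *Reln* lies at chr5:21884454-22344702 on the minus strand, *Lrat* at chr3:82892579-82903973 (minus) and *Colec11* at chr12:28594173-28623377 (minus). *Ecm1* lies at chr3:95734147-95739569 (minus) and *Adamtsl2* at chr2:27079379-27108981 (plus). *Des* is at chr1:75360329-75368579 (plus), *Rgs5* at chr1:169655501-169695813 (plus), *Pdgfra* at chr5:75152292-75198215 (plus) and *Acta2* at chr19:34241090-34255590 (minus). These 9 members thus share no single locus, although *Des* and *Rgs5*, *Lrat* and *Ecm1*, and *Reln* and *Pdgfra* lie as pairs on the same chromosome.

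Levels by cell type were taken from counts summed over cells that passed 1 gate only. In the stellate-gated cells among these, hepatocyte genes stood at 86.8% and 66.7% of their level in hepatocyte-gated cells. No value with the hepatocyte profile subtracted is given for these cells, so differences between labels in the levels below also carry this RNA. Of the 10 genes, 9 were highest in stellate-gated cells in both libraries, and *Rgs5* was the exception. These 9 lay above the endothelial, macrophage, cholangiocyte and hepatocyte gates beyond counting error in both libraries. The B, neutrophil and dendritic gates were small, down to 4 cells, and only *Reln*, *Ecm1*, *Colec11* and *Adamtsl2* had stellate intervals clear of every gate in both libraries. The share of all genes that do the same is not given. The members were named as stellate cell genes, so these counts describe the chosen genes and are not a finding about them. *Reln*, *Lrat* and *Pdgfrb* are gate genes, so their levels in that gate are a description. The remaining 7 were not used to choose the cells, but cells past the stellate gate were left out of the other gates. Contrasts of genes that go with the gate genes thus follow in part from the rule. Probes differ in efficiency between genes, so levels are compared within a gene and not between genes. Where a gene is called the most abundant of a list or leads it, this refers to counts alone.

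Among the quiescence genes, *Reln* encodes the secreted glycoprotein reelin. It stood at 431 CPM (399 to 465) in stellate-gated cells of the AEG-1 ΔMAC-labelled library and at 762 CPM (727 to 797) in those of the AEG-1 fl/fl-labelled library. In hepatocyte-gated cells it was at 8.03 and 9.90 CPM and in macrophage-gated cells at 21.4 and 14.2 CPM. The stellate level was the highest in both libraries. *Lrat* encodes lecithin retinol acyltransferase, which makes the retinyl esters that HSCs store. It was at 139 CPM (121 to 159) and 348 CPM (325 to 372) in stellate-gated cells, against 5.13 and 5.88 CPM in hepatocyte-gated cells. Endothelial-gated cells held 15.5 and 9.99 CPM of *Lrat* and macrophage-gated cells 14.2 and 12.0 CPM, values whose intervals overlap within each library.

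*Ecm1* (extracellular matrix protein 1) and *Colec11* (a collectin of the complement lectin pathway) are secreted products of HSCs. *Ecm1* was at 1220 CPM (1165 to 1277) and 1483 CPM (1435 to 1533) in stellate-gated cells. Endothelial-gated cells came next with 181 and 113 CPM, and hepatocyte-gated cells held 37.6 and 24.9 CPM. *Colec11* was at 733 CPM (691 to 778) and 1092 CPM (1050 to 1134) in stellate-gated cells. Its level in hepatocyte-gated cells was 24.2 and 23.2 CPM. Both genes were highest in stellate-gated cells in both libraries.

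*Adamtsl2* encodes a secreted ADAMTS-like protein of the microfibril matrix. It had the sharpest contrast to hepatocytes of the genes outside the gate in the AEG-1 ΔMAC-labelled library, at 453 CPM (420 to 489) in stellate-gated and 1.22 CPM in hepatocyte-gated cells, a 371-fold ratio (281 to 499). In the AEG-1 fl/fl-labelled library the levels were 787 CPM (752 to 824) and 5.44 CPM, a 145-fold ratio (128 to 164). The hepatocyte-gated level thus differed more between the libraries than the stellate one. It was 54 counts in 972 cells and 314 counts in 1108 cells.

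The platelet-derived growth factor receptors carry the main mitogenic signal to HSCs. *Pdgfrb* was at 205 CPM (183 to 229) and 491 CPM (463 to 520) in stellate-gated cells and at 2.26 and 3.33 CPM in hepatocyte-gated cells. *Pdgfra* was at 93.1 CPM (78.4 to 110) and 196 CPM (178 to 214) in stellate-gated cells and at 0.972 and 1.79 CPM in hepatocyte-gated cells. Both receptors were close to absent from endothelial-gated cells, with 0 and 3 counts of *Pdgfrb* and 1 and 3 counts of *Pdgfra*. For *Pdgfrb* this follows in part from the rule, since cells that also passed the stellate gate were left out. The 0 allows up to 3.59 CPM at 3 counts.

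*Des* encodes desmin, the intermediate filament of HSCs and muscle. It was at 66.8 CPM (54.5 to 81.1) and 72.6 CPM (62.2 to 84.2) in stellate-gated cells, so its intervals overlap between the labels. *Acta2* encodes α-smooth muscle actin, the classical mark of the myofibroblast. It was at 102 CPM (86.2 to 119) in stellate-gated cells of the AEG-1 ΔMAC-labelled library and at 20.4 CPM (15.1 to 27.0) in those of the AEG-1 fl/fl-labelled library. In hepatocyte-gated cells *Acta2* was at 0.904 and 0.503 CPM. *Acta2* was the 1 member whose level in these cells was higher in the AEG-1 ΔMAC-labelled library, and a few cells carried that excess, as described below.

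*Rgs5* encodes a regulator of G-protein signalling found in pericytes. In stellate-gated cells it was at 133 CPM (115 to 153) and 181 CPM (164 to 199). In cholangiocyte-gated cells (*Epcam*, *Krt19* and *Krt7*) it was at 25.6 CPM (10.3 to 52.8) in the AEG-1 ΔMAC-labelled library but at 336 CPM (294 to 382) in the AEG-1 fl/fl-labelled library. There the bile duct gate, and not the stellate gate, held the highest level. *Rgs5* counts were found in 5 of 19 cholangiocyte-gated cells (26.3%, 9.15% to 51.2%) and in 30 of 54 (55.6%, 41.4% to 69.1%), at medians of 9012 and 8246 counts per cell. The top cell held 40 of the 231 counts in the AEG-1 fl/fl-labelled library, and without it the level was 314 CPM. Hepatocyte-gated cells had *Rgs5* counts in 19.8% and 24.9% of cells at medians of 22964 and 24056 counts.

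**Figure D1:**
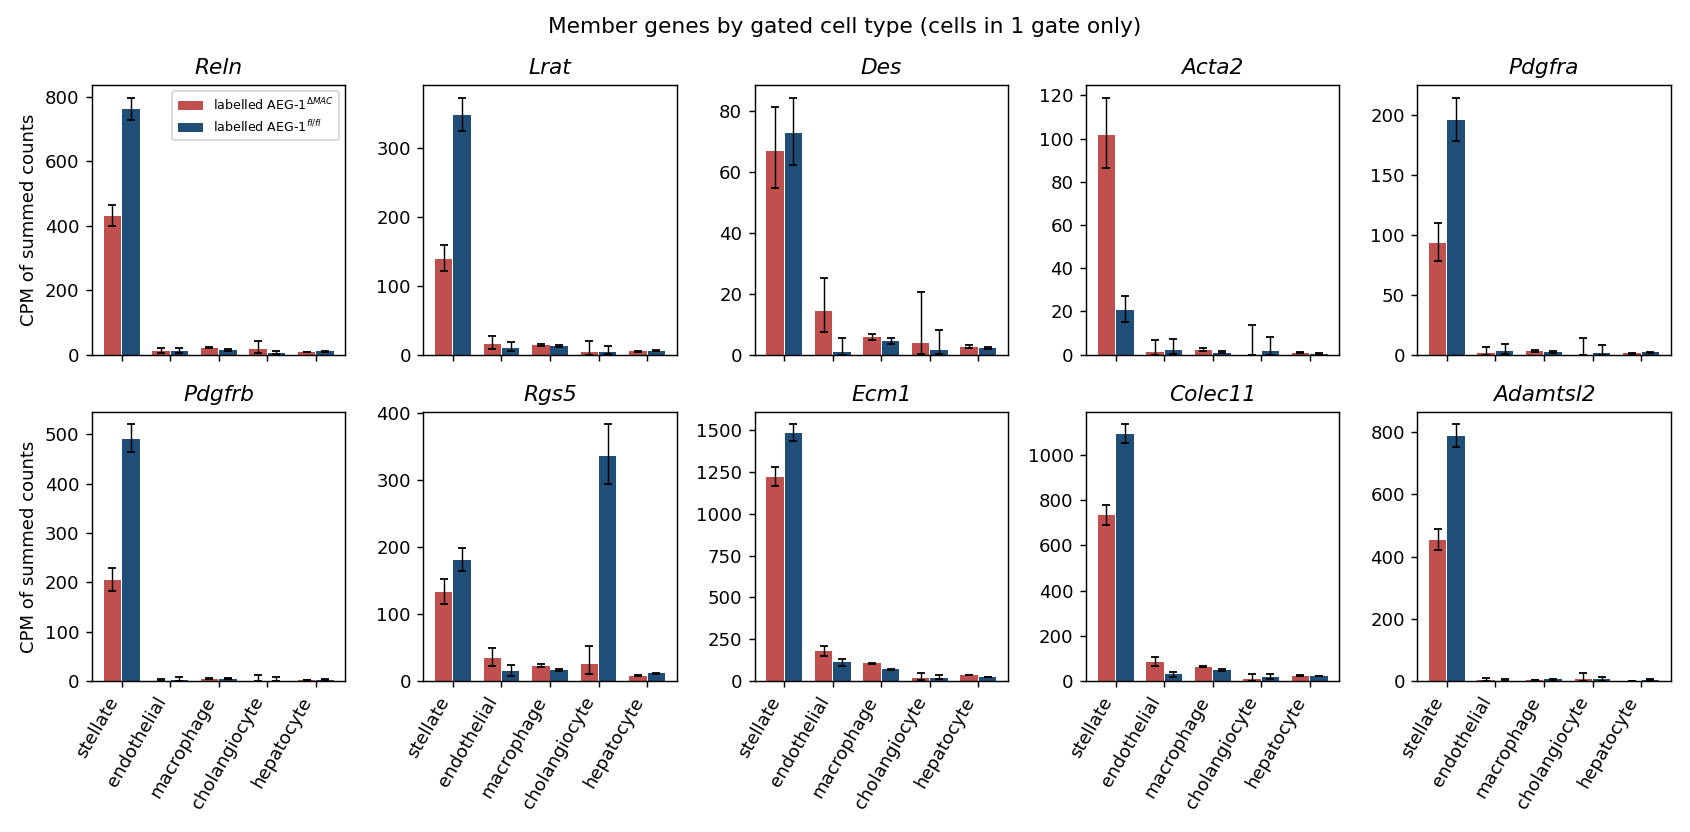
CPM of the 10 genes in summed counts of cells that passed 1 gate only, for the 5 gates with the most counts, in the AEG-1 ΔMAC-labelled (red) and the AEG-1 fl/fl-labelled (blue) library. Bars start at 0, error bars are Poisson 95% intervals, and each panel has its own scale. Stellate-gated cells are highest in all panels except for *Rgs5*, which reached 336 CPM in cholangiocyte-gated cells of the AEG-1 fl/fl-labelled library.

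*Hgf*, the hepatocyte growth factor gene, was set aside from the balance described below. It was at 254 CPM (229 to 280) and 459 CPM (433 to 487) in stellate-gated cells and at 159 CPM (133 to 188) and 121 CPM (100 to 144) in endothelial-gated cells. Its stellate level was thus 1.60 and 3.80 times the endothelial one. In hepatocyte-gated cells it was at 5.86 and 5.76 CPM.

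The 10 genes whose levels over the 9 gates and both libraries (18 points) were most like the mean profile of the members were *Lratd1*, *Wfdc1*, *Gucy1b1*, *Pde1a*, *Lama1*, *Col5a1*, *Tnc*, *Foxf1*, *Mamdc2* and *Ccbe1*, among 8924 genes with enough counts. Their Pearson correlations of log2 CPM ranged from 0.966 to 0.977. The points share libraries and free RNA, and small gates have few counts, so the correlation is a description. Among the members themselves, the correlation with the mean of the other 9 was highest for *Adamtsl2* (0.958) and lowest for *Rgs5* (0.645).

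The libraries were then compared within all cells that passed the stellate gate, whether or not they passed another. Of the 10 members, 5 were lower by over 1.5-fold in the AEG-1 ΔMAC-labelled library, where 15.8% of 12415 genes with at least 20 summed counts were lower by that much. No member was higher by over 1.5-fold, against 3.30% of genes. The median log2 ratio (the first label named here divided by the second) was -0.53 over the members and -0.17 over all of these genes. The members that were lower were *Reln*, *Lrat*, *Pdgfra*, *Pdgfrb* and *Adamtsl2*.

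*Pdgfrb* had the lowest ratio. It was at 127 CPM (118 to 136) in the AEG-1 ΔMAC-labelled and 287 CPM (275 to 299) in the AEG-1 fl/fl-labelled library, a log2 ratio of -1.18 (-1.29 to -1.06). *Adamtsl2* was close to it, at 160 CPM (150 to 170) and 358 CPM (345 to 371), a log2 ratio of -1.17 (-1.27 to -1.06). In the AEG-1 ΔMAC-labelled library a single cell held 114 of the 1048 *Adamtsl2* counts. *Pdgfra* was at 55.3 CPM (49.7 to 61.2) and 111 CPM (104 to 119), a log2 ratio of -1.01 (-1.19 to -0.83). Both receptors for platelet-derived growth factors were thus lower than in the other library by about the same factor as *Adamtsl2*.

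*Lrat* was at 140 CPM (131 to 149) and 280 CPM (269 to 292), a log2 ratio of -1.002 (-1.11 to -0.89). *Reln* was at 337 CPM (323 to 352) and 536 CPM (520 to 552), a log2 ratio of -0.67 (-0.74 to -0.59). Both quiescence genes of the balance were therefore lower in the same library as *Pdgfrb*. *Dcn*, also a gate gene, was at 1136 and 1832 CPM (log2 ratio -0.69) and *Hgf* at 221 and 321 CPM (-0.53).

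*Colec11* was at 679 CPM (659 to 699) and 896 CPM (876 to 917), a log2 ratio of -0.40 (-0.46 to -0.35). *Rgs5* was at 152 CPM (143 to 162) and 178 CPM (168 to 187), a log2 ratio of -0.22 (-0.34 to -0.10). *Ecm1* was at 1255 and 1229 CPM (log2 ratio 0.03, -0.01 to 0.07) and *Des* at 55.1 and 59.2 CPM (-0.10, -0.30 to 0.10), and the intervals of both ratios hold 0. *Acta2* was at 31.1 CPM (26.9 to 35.6) and 23.6 CPM (20.4 to 27.2), a log2 ratio of 0.40 (0.11 to 0.69). These pooled ratios also carry how strongly the cells passed the gate.

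Cells at 50 per 10,000 or more of the gate genes made up 16.5% of the gate with the AEG-1 ΔMAC label and 29.5% with the other, so ratios of CPM were also taken within bands of the gate genes (5 to 10, 10 to 20, 20 to 50, and 50 or more). *Reln* had log2 ratios of 0.14, 0.04, 0.05 and -0.01 in these bands, all with intervals that hold 0, so by CPM its lower pooled level was not found within any band. *Ecm1*, level when pooled, was higher with the AEG-1 ΔMAC label in each band, at 0.50, 0.44, 0.82 and 0.57. *Colec11*, lower when pooled, was at 0.32, 0.14, 0.15 and 0.04. These band values depend on the scale too. Per count of *Hand2*, *Tcf21* and *Lhx2* the band from 10 to 20 had *Reln* at -0.50, *Ecm1* at -0.10, *Colec11* at -0.40 and *Adamtsl2* at -0.50. On that scale *Reln* was at 0.12, 0.02 and 0.34 in the bands from 5 to 10, 20 to 50, and 50 or more. In the same bands *Ecm1* was at 0.48, 0.80 and 0.91, *Colec11* at 0.30, 0.12 and 0.38, and *Adamtsl2* at -1.92, -0.82 and -0.08. Lower pooled levels of *Reln* and *Colec11* were thus not found within bands of CPM, and *Ecm1*, level when pooled, was higher in each.

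Within the bands *Lrat* was at -0.08 and -0.17, with intervals that hold 0, and then at -0.63 and -0.61. *Pdgfra* was at -0.08, -0.17, -0.61 and -0.46, and its first 2 intervals also hold 0. *Pdgfrb* was at -0.37, -0.10, -0.60 and -0.78, and its interval holds 0 in the band from 10 to 20. *Adamtsl2* was at -1.90, 0.03, -0.80 and -0.43, so by CPM it was not lower in the band from 10 to 20. Lower levels of these 4 genes were thus found within the 2 upper bands, and less evenly in the lower ones. As gate genes, *Reln*, *Lrat* and *Pdgfrb* are constrained by the band limits. *Rgs5* was at 0.39, -0.24, 0.57 and -0.15, and only its interval at 50 or more holds 0. Its lower pooled level was thus not found in the bands from 5 to 10 and from 20 to 50. *Des* was at 0.42, 0.52, -0.07 and 0.14, with an interval clear of 0 from 10 to 20 alone. *Acta2* was at 0.22, 3.30, 0.18 and -0.52, clear of 0 in that same band, which held the top *Acta2* cell of the AEG-1 ΔMAC-labelled library.

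The scale of the pooled ratios depended on the hepatocyte RNA in the total. With the hepatocyte profile subtracted, the median over the members was -0.03. *Pdgfrb* was then at -0.67, *Adamtsl2* at -0.65, *Lrat* at -0.51, *Pdgfra* at -0.50 and *Reln* at -0.16. *Colec11* (0.10), *Rgs5* (0.30) and *Des* (0.39) changed sign, *Ecm1* was at 0.53 and *Acta2* at 0.90. By over 1.5-fold, 2 members were then lower and 1 higher, beside 22.9% and 10.7% of 10767 genes. The order of the members was kept at its lower end, with *Pdgfrb* and *Adamtsl2* lowest.

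A scale inside the lineage shifted the ratios further. *Hand2*, *Tcf21* and *Lhx2*, transcription factors of the HSC lineage, summed to 332 CPM in the AEG-1 ΔMAC-labelled and 522 CPM in the AEG-1 fl/fl-labelled library. Per count of these 3 genes, *Reln* had a log2 ratio of -0.01, *Lrat* of -0.35, *Pdgfra* of -0.36, *Adamtsl2* of -0.51 and *Pdgfrb* of -0.52. *Colec11* (0.25), *Rgs5* (0.43), *Des* (0.55), *Ecm1* (0.68) and *Acta2* (1.05) were above 0. By over 1.5-fold, no member was lower and 2 were higher, beside 4.16% and 38.5% of genes. On this scale *Reln* was level between the labels. The scale shifts every ratio by the same amount, so the order of the members, with *Pdgfrb* lowest, could not change.

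Cells at 50 per 10,000 or more of the gate genes held less foreign RNA: hepatocyte genes stood at 32.5% and 27.0% of their level in hepatocyte-gated cells. In these 64 and 182 cells 2 of the 10 members, *Lrat* and *Pdgfrb*, were lower by over 1.5-fold in the AEG-1 ΔMAC-labelled library, where 16.8% of 9863 genes were lower, and no member was higher by that much, against 11.3% of genes. *Pdgfrb* was at 558 and 961 CPM (log2 ratio -0.78, -1.01 to -0.57) and *Lrat* at 598 and 909 CPM (-0.61, -0.82 to -0.39). *Reln* was at 1905 and 1912 CPM (-0.01) and *Colec11* at 2798 and 2727 CPM (0.04). *Ecm1* was higher in the AEG-1 ΔMAC-labelled library, at 5680 and 3838 CPM (0.57, 0.49 to 0.64). The sum of the gate genes is fixed from below in these cells, so *Reln*, *Lrat* and *Pdgfrb* are read only against each other.

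*Pdgfra*, which the gate did not use, was at 258 and 355 CPM in the same cells (log2 ratio -0.46, -0.80 to -0.13), and *Adamtsl2* at 724 and 974 CPM (-0.43, -0.63 to -0.23). *Rgs5* (-0.15, -0.42 to 0.11), *Des* (0.14, -0.33 to 0.58) and *Acta2* (-0.52, -1.42 to 0.28) had ratios whose intervals hold 0. *Acta2* rested on 15 and 84 counts there. Per count of *Hand2*, *Tcf21* and *Lhx2*, which summed to 1406 and 1787 CPM in these cells, *Pdgfra* was at -0.11 and *Adamtsl2* at -0.08, and *Reln* at 0.34. Lower *Pdgfra* and *Adamtsl2* in these cells thus depended on the scale.

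**Figure D2:**
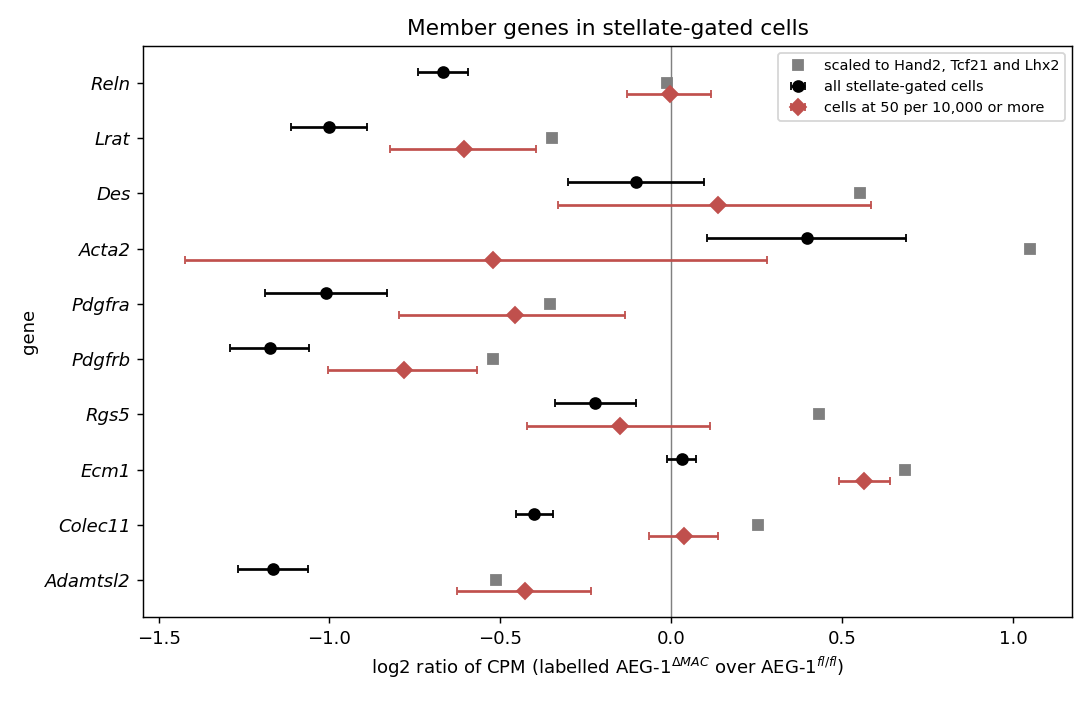
log2 ratio of CPM (AEG-1 ΔMAC label divided by AEG-1 fl/fl label, x axis) of each member (y axis) in all stellate-gated cells (black), on the scale of *Hand2*, *Tcf21* and *Lhx2* (grey) and in cells at 50 per 10,000 or more of the gate genes (red). Error bars are Clopper-Pearson 95% intervals for counting error. *Lrat*, *Pdgfra*, *Pdgfrb* and *Adamtsl2* lie below 0 in all 3 series, and *Ecm1* lies at 0.03 in all stellate-gated cells and above 0 in the other 2.

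The share of stellate-gated cells with a count was compared after each cell was thinned to 1000 counts, which left out 19 and 32 shallower cells. *Pdgfrb* was found in 15.2% of cells (11.7% to 19.3%) in the AEG-1 ΔMAC-labelled and 26.8% (23.3% to 30.6%) in the AEG-1 fl/fl-labelled library. *Lrat* was found in 17.1% (13.4% to 21.3%) and 27.5% (23.9% to 31.3%), and *Pdgfra* in 9.49% (6.70% to 12.9%) and 16.1% (13.2% to 19.3%). Thinned hepatocyte-gated cells, read as a guide to free RNA, gave 0.213% and 0.0923% for *Pdgfrb*, 0.640% and 0.646% for *Lrat*, and 0.107% and 0% for *Pdgfra*. For the gate genes *Pdgfrb* and *Lrat* a higher share in the stellate gate follows from the gate rule. Only *Pdgfra* is read there, with the limit that cells past the stellate gate were left out of the hepatocyte gate. All 3 shares in the stellate gate were lower with the AEG-1 ΔMAC label.

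*Adamtsl2* was found in 17.1% (13.4% to 21.3%) and 24.4% (21.0% to 28.1%) of thinned cells, with intervals that just overlap. *Reln* (32.5% and 34.5%), *Ecm1* (57.5% and 54.5%), *Colec11* (53.1% and 52.0%) and *Des* (7.32% and 9.57%) also had overlapping intervals. *Rgs5* was found in 17.9% and 15.0%, an order opposite to that of its CPM, so no order is read. Unthinned, *Pdgfrb* was found in 54.1% and 55.1%, *Lrat* in 56.7% and 60.5%, and *Pdgfra* in 40.0% and 43.9% of stellate-gated cells, at medians of 5746 and 4838 counts. In unthinned hepatocyte-gated cells these shares were 7.00% and 8.84%, 14.5% and 18.4%, and 4.22% and 6.41%, at medians of 22964 and 24056 counts. The unthinned shares are from cells of unequal depth and are not read as a difference.

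*Acta2* was concentrated in few cells. It was found in 47 of 388 stellate-gated cells of the AEG-1 ΔMAC-labelled library and in 52 of 617 of the AEG-1 fl/fl-labelled library, and 13 and 16 cells held 3 or more counts. A single cell held 89 of 204 counts (43.6%) in the first library, and another held 42 of 193 (21.8%) in the second. The 10 cells with most *Acta2* held 76.5% and 67.4% of the counts. After thinning, 2.71% (1.31% to 4.93%) and 2.22% (1.19% to 3.77%) of stellate-gated cells had an *Acta2* count, against 0.320% and 0.0923% of hepatocyte-gated cells. Most stellate-gated cells of both libraries thus had no detectable *Acta2* at this depth.

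The top *Acta2* cell of each library was looked at for other genes. In the AEG-1 ΔMAC-labelled library the top cell, with 9654 counts in all, also held 72 counts of *Myh11* (smooth muscle myosin), 29 of *Cnn1* (calponin), 21 of *Actg2* and 19 of *Lmod1*, and 0 of *Reln* and *Lrat*. The second cell held 17 counts of *Acta2*, 21 of *Myh11* and 0 of *Reln* and *Lrat*. In the AEG-1 fl/fl-labelled library the top cell, with 94744 counts in all, held 161 counts of *Reln*, 106 of *Lrat*, 29 of *Des* and 464 of *Col1a1*, and 1 of *Myh11* and 0 of *Cnn1*. The second cell there held 30 counts of *Acta2*, 21 of *Myh11*, 0 of *Reln* and 1 of *Lrat*. Cells with genes of vascular smooth muscle thus occurred in both libraries. *Pdgfrb* was counted in all 4 cells (7, 1, 45 and 25 counts), while *Reln* was counted in the top cell of the AEG-1 fl/fl-labelled library alone. These cells were looked at after their counts had been seen.

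Most smooth muscle genes were higher in the same library as *Acta2*. Of the 5 genes on that list, 4 were higher by over 1.5-fold in stellate-gated cells of the AEG-1 ΔMAC-labelled library and 1 (*Synpo2*, log2 ratio -0.60) was lower, beside 15.8% lower and 3.30% higher over all genes. The list summed to 54.6 CPM in the AEG-1 ΔMAC-labelled and 30.6 CPM in the AEG-1 fl/fl-labelled library, *Myh11* was its most abundant gene, and none was at 0 in both. *Cnn1* had 41 counts and 1 count. The top *Acta2* cell alone held 72 of the 167 *Myh11* counts and 29 of the 41 *Cnn1* counts of its library. Cells with at least 5 per 10,000 and 3 counts of these genes numbered 8 of 388 and 10 of 617, and they held 67.6% and 27.5% of the *Acta2* counts.

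Without these cells *Myh11* had 55 counts in each library, of 6534922 and 8088263 counts in all. *Lmod1* had 32 and 25 counts, *Synpo2* 40 and 78, *Actg2* 2 and 0, and *Cnn1* 0 and 1. *Acta2* turned in direction. It was at 10.1 CPM in the AEG-1 ΔMAC-labelled and 17.3 CPM in the AEG-1 fl/fl-labelled library, a log2 ratio of -0.78 (-1.22 to -0.35). Without only the top cell of each library the ratio was -0.09. *Des* stayed near its value (-0.17, -0.38 to 0.03), and *Rgs5* too (-0.26, -0.38 to -0.14). Among other contractile genes, *Myl9* (0.41, 0.08 to 0.74) and *Tpm2* (0.39, 0.20 to 0.58) stayed higher with the AEG-1 ΔMAC label, and *Tagln* (-0.21, -0.35 to -0.07) was lower. Higher *Acta2* with the AEG-1 ΔMAC label was therefore carried by few cells with smooth muscle genes, and leaving out each library's top cell already removed it. Among the other cells, 1 cell of the AEG-1 fl/fl-labelled library held 42 of 140 counts. With the top remaining cell of each library also left out, *Acta2* was at 9.35 and 12.3 CPM, a log2 ratio of -0.39 (-0.88 to 0.08) whose interval holds 0.

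The α-smooth muscle actin promoter is printed because *Acta2* is the member that went with smooth muscle genes. The CArG box is the element bound by serum response factor, and it was searched, on both strands, as CC and GG around 6 bases of which at most 1 is C or G. Among the 250 bases upstream of each gene start in RefSeq (GRCm38.p6), 2823 of 32851 promoters (8.59%) held such a match. Of the members, 9 had a promoter in this table. *Acta2* held 2 matches and *Lrat* 1, and the other 7 held 0. Among smooth muscle and contractile genes looked up there, *Cnn1*, *Lmod1* and *Tpm2* held 0 and *Myl9* held 2. *Myh11*, *Actg2* and *Tagln* had no promoter there and were not searched. A match is a description of letters and not a shown site. The stretch of 100 bases at chr19:34255378-34255477 on the minus strand follows, with the matches in capitals, which begin 84 and 34 bases before the RefSeq gene start. The GENCODE span of *Acta2* given above begins further upstream and takes in the stretch.
*Acta2*: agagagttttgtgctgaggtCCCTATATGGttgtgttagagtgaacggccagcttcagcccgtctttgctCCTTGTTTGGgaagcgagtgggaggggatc

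The balance of activated over quiescent genes was taken as the log2 ratio of summed *Acta2*, *Pdgfrb* and *Des* counts to summed *Lrat* and *Reln* counts in all stellate-gated cells. It was -1.16 (-1.26 to -1.07) in the AEG-1 ΔMAC-labelled library, from 1400 and 3136 counts. It was -1.14 (-1.21 to -1.08) in the AEG-1 fl/fl-labelled library, from 3022 and 6677 counts. Activated genes made up 30.9% (29.5% to 32.2%) and 31.2% (30.2% to 32.1%) of the 5-gene sum. The difference of the balances was -0.02 (-0.13 to 0.09), so none was detectable between the labels within counting error in all stellate-gated cells. It moved both ways with the cells and the summing. It was 0.32 in cells past no other gate, 0.54 as mean log2 CPM per gene and -0.21 in thinned cells. Adding *Hgf* to the quiescent genes gave -1.71 and -1.62.

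The equal sums hid unequal parts. Of the activated counts, *Pdgfrb* made up 59.6% in the AEG-1 ΔMAC-labelled and 77.6% in the AEG-1 fl/fl-labelled library, *Des* 25.9% and 16.0%, and *Acta2* 14.6% and 6.39%. Without *Pdgfrb* the balance was -2.47 and -3.30, higher with the AEG-1 ΔMAC label by 0.83. Without *Des* it was lower with that label by a difference of -0.20, and without *Acta2* by -0.15. The quiescent sum was led by *Reln*, with 70.7% and 65.6% of its counts, and without *Reln* the difference was 0.21. The sign of the difference thus varied with the genes counted.

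The balance also varied with how strongly cells passed the gate. At 5 to 10 per 10,000 it was -1.33 (-1.55 to -1.11) in 116 cells of the AEG-1 ΔMAC-labelled and -1.17 (-1.38 to -0.96) in 186 cells of the AEG-1 fl/fl-labelled library. At 10 to 20 it was -0.74 (-0.91 to -0.57) and -1.21 (-1.40 to -1.03), in 93 and 125 cells. At 20 to 50 it was -0.998 (-1.17 to -0.83) and -0.76 (-0.89 to -0.63), in 115 and 124 cells. At 50 or more it was -1.74 (-1.94 to -1.54) and -1.29 (-1.37 to -1.20), in 64 and 182 cells. The AEG-1 ΔMAC-labelled library was above the other in the band from 10 to 20 and below it in the other 3. Without the top *Acta2* cell the balance in the band from 10 to 20 was -1.17 (-1.36 to -0.98) against -1.21, so the gap there fell to within counting error. The intervals of the 2 libraries overlap in the bands from 5 to 10 and from 20 to 50. Overlap alone does not place a difference within counting error, and no interval of the difference is given for these bands.

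In the strongest band the difference was -0.45 (-0.67 to -0.24), which lies outside counting error. Activated genes made up 23.0% and 29.1% of the sum there, and *Pdgfrb* gave 74.5% and 83.1% of the activated counts. This band held 16.5% of the stellate-gated cells of the AEG-1 ΔMAC-labelled library and 29.5% of those of the AEG-1 fl/fl-labelled library. A pooled balance therefore weights the bands differently in the 2 libraries. The smooth muscle cells also bore on it, since without them the pooled difference was -0.16, and without the top *Acta2* cell of each library it was -0.14.

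**Figure D3:**
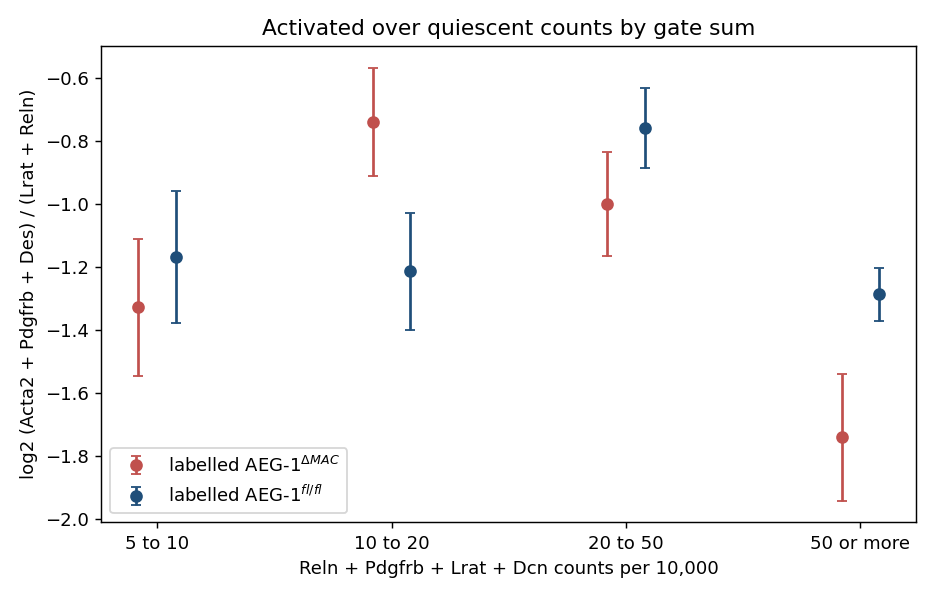
log2 of summed *Acta2*, *Pdgfrb* and *Des* counts over summed *Lrat* and *Reln* counts (y axis) in stellate-gated cells, by the level of the 4 gate genes per 10,000 counts (x axis), in the AEG-1 ΔMAC-labelled (red) and the AEG-1 fl/fl-labelled (blue) library. Error bars are Clopper-Pearson 95% intervals for counting error. In cells at 50 or more the values were -1.74 and -1.29, and the gap in the band from 10 to 20 fell to within counting error without 1 cell with smooth muscle genes.

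Other genes of the lineage were read beside the members in all stellate-gated cells. Of 16 genes of stellate cell lineage and quiescence, 8 were lower by over 1.5-fold with the AEG-1 ΔMAC label, none was higher, beside 15.8% and 3.30% of all genes. The median log2 ratio was -0.59, or -0.07 with the hepatocyte profile subtracted in the 15 genes that kept a value. The list holds the gate gene *Dcn*. *Cygb* (cytoglobin) was lowest at -1.02 and *Vipr1* highest at 0.21. In cells at 50 per 10,000 or more, 1 of 15 was lower, 2 were higher and the median was -0.10, beside 16.8% lower and 11.3% higher over all genes there. The genes of the list went both ways in these cells, with *Lhx2* at -0.59 (-0.94 to -0.25) and *Pth1r* at 0.44 (0.29 to 0.58).

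Of 18 contractile and myofibroblast genes, 7 were lower and 3 higher, beside the same shares over all genes. The median was -0.18, or 0.31 with the hepatocyte profile subtracted. In cells at 50 per 10,000 or more, 6 of 15 were lower, 1 was higher and the median was -0.52, beside 16.8% lower and 11.3% higher over all genes. *Col1a1*, the main fibrillar collagen gene, was lowest at -1.73, with 902 and 2984 CPM. *Cnn1*, a smooth muscle gene as well, was highest at 5.67 (3.11 to 11.01), which rests on 41 counts and 1 count. In cells at 50 per 10,000 or more *Col1a1* was at 3454 and 9067 CPM (-1.39). Per count of the 3 lineage genes *Col1a1* was at -1.07, so it was lower with the AEG-1 ΔMAC label on each of these scales.

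Of the 6 platelet-derived growth factor genes, which hold both receptors, 3 were lower and none higher, beside 15.8% lower and 3.30% higher over all genes, and the lowest was the ligand gene *Pdgfb* at -1.21, with 49 and 141 counts. The highest was *Pdgfa* at 0.10. The median of the list was -0.72, or -0.58 with the hepatocyte profile subtracted. Of 7 retinoid genes with at least 20 counts, 2 were lower and 1 higher, beside 15.8% lower and 3.30% higher over all genes, with a median of 0.17, or -0.26 with the hepatocyte profile subtracted in the 6 genes that kept a value. *Lrat* was lowest, and *Plin4*, a lipid droplet gene that hepatocytes also express, highest at 0.72. *Stra6* had 0 counts in both libraries, and *Aldh1a2* had 2 and 12. *Aldh1a1* was at 1123 and 925 CPM (0.28), and at -0.25 with the hepatocyte profile subtracted.

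Genes of the position of HSCs along the lobule were read as 2 lists. Of 3 pericentral genes only *Adamtsl2* was lower by over 1.5-fold, beside 15.8% of all genes, and *Rspo3* (-0.15) and *Spon2* (0.03) were near 0. With the hepatocyte profile subtracted *Spon2* was at -0.66, beside -0.65 for *Adamtsl2* and 0.35 for *Rspo3*. Of 4 portal genes none passed 1.5-fold, with ratios from -0.56 (*Igfbp3*) to -0.40 (*Itgb3*) and a median of 0.02 after the subtraction. *Spon2* thus shared the low *Adamtsl2* on 1 of these scales, and *Rspo3* on neither. In cells at 50 per 10,000 or more *Rspo3* was higher by over 1.5-fold (0.61).

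Markers of other cells in the gate were as follows, and their counts are read beside 15.8% lower and 3.30% higher over all genes. Of 6 portal fibroblast genes with enough counts, 2 were lower and none higher, with a median of -0.11, a summed level of 158 and 286 CPM, and *Eln* (elastin, the most abundant) lowest at -1.87. Of 3 mesothelial genes 2 were lower, with a median of -0.88 and a summed level of 9.28 and 15.8 CPM, led by *Msln*. Of 10 macrophage genes 2 were lower and 2 higher, from *Gpnmb* (-1.71) to *Marco* (1.69), with a summed level of 4411 and 4521 CPM, led by *Cd5l*. No marker of these 3 lists was at 0 in both libraries. Of 12 hepatocyte genes 5 were higher and none lower, with a median of 0.49, from *Ahsg* (-0.07) to *Hpd* (1.17). With the hepatocyte profile subtracted the medians were 0.34 for 5 portal fibroblast genes, -0.39 for the mesothelial and 0.50 for the macrophage genes. The part of these cells and of their RNA in the members' ratios was not tested.

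Cell cycle genes were low in both libraries. All 5 measured were lower by over 1.5-fold with the AEG-1 ΔMAC label, beside 15.8% of all genes, with a summed level of 25.4 and 72.4 CPM and a median log2 ratio of -1.48. *Mki67* was the most abundant, with 52 and 189 counts, and *Top2a* (-1.76) was lowest. In cells at 50 per 10,000 or more *Mki67* had 1 and 61 counts, at 2.81 and 43.9 CPM (log2 ratio -3.97, -9.29 to -1.43). How these counts were spread over cells is not given. Of 10 macrophage genes 6 were lower and 2 higher in cells at 50 per 10,000 or more, with a median of -0.75, beside 16.8% lower and 11.3% higher over all genes. With the hepatocyte profile subtracted the median of the cell cycle genes in all stellate-gated cells was -1.64.

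These values have limits. Each label has 1 library, so differences between animals and between library preparations cannot be told apart from those between genotypes, and no test was possible. *Mtdh* did not follow the labels. The stellate gate also let in macrophage, endothelial and hepatocyte RNA, and doublets were kept, so a lower level can reflect fewer HSCs among the gated cells as well as less RNA per HSC. *Reln*, *Lrat*, *Pdgfrb* and *Dcn* chose the cells in which they were then read. *Acta2* rested on few cells. RNA levels alone were measured, without protein, retinoid stores or histology, and with no time course.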

How the data were processed

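Single cells were measured in 2 liver libraries, 1 per label. The authors deposited raw UMI counts per gene and cell, which are not normalized. Per the labels they used Cell Ranger 7.1.0 with the mm10 reference; the version in the study's methods differs. UMIs from a probe panel count probe pairs, so levels are not comparable between genes.

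Cells were left out below 100 detected genes or above 10% counts from mitochondrial genes. Gates other than the stellate gate needed 5 per 10,000 and 3 counts of their markers (endothelial, macrophage, cholangiocyte, T and NK, B, neutrophil and dendritic), and the hepatocyte gate needed 200 per 10,000 and no other gate. Doublets were not removed. Counts were summed and given as CPM with Poisson intervals. Ratios have Clopper-Pearson intervals given the sum of the counts, shares have exact binomial intervals, and differences of balances have exact conditional intervals for an odds ratio. A count of 0 was taken to allow 3 counts. The hepatocyte profile was subtracted in proportion to 12 hepatocyte genes. With 1 library per label no test between labels was made. The script for the ratio was tested on simulated data.

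All members, *Hgf* and *Dcn* are named. For most lists the highest and lowest gene among those with at least 20 summed counts are named, and for some the most abundant gene. The 10 genes most like the members were taken by correlation of log2(CPM + 5) among those with at least 50 counts. Others named (*Mtdh*, *Myh11*, *Actg2*, *Lmod1*, *Tagln*, *Myl9*, *Tpm2*, *Pth1r*, *Aldh1a1*, *Aldh1a2*, *Stra6*, *Rspo3*, *Mki67* and the transcription factors) were chosen after their values were seen. The members and lists were chosen with earlier results of these data known. Alternatives varied the gates, filters, genes, scaling and summing. Python 3.11.15, NumPy 2.4.6, SciPy 1.17.1, pandas 2.3.3 and matplotlib 3.10.9 were used.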

Additional observations from a re-analysis of the deposited data

How the results depend on the processing

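No paired analysis was possible because each label has 1 library and no result comes from a test. The difference of balances (main -0.02) moved beyond its counting interval under 12 alternatives. It was 0.32 in cells past no other gate, 0.14 as a mean over cells, 0.54 as a difference of mean log2 CPM per gene, and -0.21 in cells thinned to 1000 counts. It was 0.83 without *Pdgfrb*, -0.15 without *Acta2*, -0.20 without *Des* and 0.21 without *Reln*. Among alternatives chosen after seeing the data, it was -0.19 at 20 per 10,000, -0.45 at 50 per 10,000, -0.16 without smooth muscle cells and -0.14 without the top *Acta2* cell of each library. The cause was not tested, beyond the genes or cells each alternative leaves out.

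The difference in the share of stellate-gated cells (main -2.50 percentage points) turned to 0.27 with the gate on *Dcn*, *Colec11* and *Ecm1*, and ranged from -2.70 to -1.33 under the others. The 9 members highest in stellate-gated cells in both libraries were 9 under each of 3 other gate rules. The log2 ratios of *Lrat*, *Pdgfra*, *Pdgfrb* and *Adamtsl2* stayed below 0 under the alternatives to the gate, filters, genes, scale and cells run for them, with -0.11 for *Pdgfra* and -0.082 for *Adamtsl2* on the lineage scale at 50 per 10,000. Within single bands *Adamtsl2* reached 0.0335 (10 to 20), *Pdgfra* -0.076 and *Lrat* -0.0795 (5 to 10). *Reln* was level (-0.01) at 50 per 10,000 and on the lineage scale. With both together, chosen after seeing the data, *Reln* turned to 0.34, *Dcn* to 0.21, *Colec11* to 0.38, *Rgs5* to 0.20, *Hgf* to 0.23 and *Acta2* to -0.18. *Acta2* (main 0.40) turned to -0.00622 at 20 per 10,000, -0.52 at 50 per 10,000, -0.017 with the other gate genes, -0.78 without smooth muscle cells, -0.39 without these and the next top cell, and -0.091 without the top cell. *Colec11* turned to 0.037 at 50 per 10,000, 0.10 with the hepatocyte profile subtracted and 0.25 on the lineage scale. *Rgs5* turned to 0.0404 with hepatocyte genes left out of the total, 0.30 with the profile subtracted and 0.43 on the lineage scale, and *Hgf* turned to 0.12 on that scale. *Des* and *Ecm1*, whose main intervals hold 0, fell on both sides of 0. Leaving out the 10 shared barcodes changed no direction. Small gates limit the levels of rare cell types, and 15 *Acta2* counts limit its ratio in the strongest band.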
